A study of Mus musculus with 6 samples.

Results

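The 10 genes Tubb3, Stmn2, Elavl4, Gap43, Snap25, Syp, Syt4, Scg2, Chga and Chgb are neuronal and neuroendocrine genes known as targets of the repressor Rest. They were picked by symbol from a table of normalised RNA sequencing values of mouse fetal testes. Of the 10, 9 had a row among the 16862 genes of the table, Scg2 was not analysed here, and 7 passed a filter on low values (at least 10 in at least 3 libraries). Snap25 and Chgb fell below that filter. The libraries came from whole gonads of male C57BL/6 embryos at E13.5, in embryonic days. The knockout group (KO) held 3 libraries, numbered 5, 7 and 8, from L/H-Pgds-/- embryos, which lack both the lipocalin-type and the hematopoietic prostaglandin D synthase. The wild-type group (WT) held 3 libraries, numbered 1, 3 and 4. The labels speak of 6 different littermates but tie no library to a litter, do not name the deleted exons and do not say whether gonads were pooled, so p-values measure the spread between these libraries. Ptgds, the gene of the lipocalin-type enzyme, had 15.24, 4 and 2.937 in KO, against 6560, 8137 and 8712 in WT, which matches the labelled genotypes for that gene.

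Rest, also called NRSF, is a zinc finger repressor that binds a DNA element named RE1 and recruits the CoREST and Sin3 corepressors with histone deacetylases and demethylases. In cells outside the nervous system it holds down genes of axons, synapses and secretory granules, and in neurons its loss lets those genes be expressed. A fetal testis is built mainly of Sertoli, germ and interstitial cells, and neuronal genes in it can come from nerve fibres, from neural crest derivatives beside the gonad or from low expression in gonadal cells.

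The direction in which Rest itself differed is part of how the genes were chosen and is given as a description. Rest had normalised values of 477.6, 475.4 and 575.6 in KO gonads, against 46.51, 109.5 and 62.59 in WT gonads. Its corepressor gene Rcor1 had 304.1, 276.8 and 369.9 in KO against 44.9, 76.14 and 41.68 in WT. Every KO library lay above every WT library for both genes. These values are the deposited pseudo-counts after upper-quartile normalisation, which are not reads, and they are not corrected for transcript length.

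None of the 7 tested targets was called higher in KO, and 1, Tubb3, was called lower. A call means a limma adjusted p under 0.05. Over all 15116 genes tested, 17.3% were called higher in KO and 17.0% lower, so 1 of 7 is near the share of all genes called lower. A target that was not called is not thereby shown to be unchanged. The median log2 change, KO minus WT, was -0.08 over the 7 targets, 3 positive and 4 negative, beside -0.03 over all genes tested. For Syt4 the 3 KO libraries all lay above the 3 WT libraries, a pattern seen in 24.7% of all genes tested, and for Tubb3 they all lay below, a pattern seen in 25.6%.

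**Figure D1:**
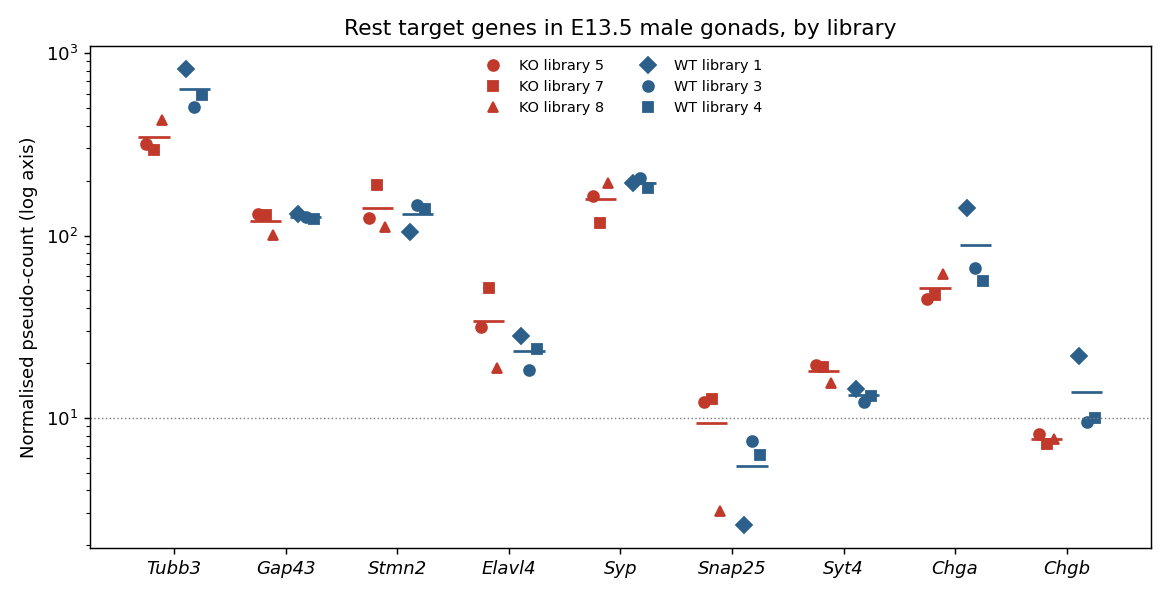
Normalised value of each Rest target (log axis) in the 3 KO libraries and the 3 WT libraries, 1 point per library. A horizontal bar marks each group's mean, and the dotted line marks the filter at 10. The groups are apart for Tubb3 and Chgb, lower in KO, and for Syt4, higher in KO, and they overlap for the other 6 genes. Over all genes tested, the libraries were apart in 24.7% with KO higher and in 25.6% with KO lower. Chgb, below the filter, is not among the genes tested.

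Tubb3 is shown first by sequence, because it is the target that was called. Its promoter holds the letters of both parts of an RE1, but far apart, in reverse order and not joined as a core. The core was searched as the left part CAGCACC, 2 bases of any kind and the right part GGACAG, on both strands. The window runs from 250 bases before to 50 bases after the annotated start on the plus strand, at chr8:123411303-123411602 of GRCm38.p6 from RefSeq, and capitals mark the reverse complements of both parts.
Tubb3: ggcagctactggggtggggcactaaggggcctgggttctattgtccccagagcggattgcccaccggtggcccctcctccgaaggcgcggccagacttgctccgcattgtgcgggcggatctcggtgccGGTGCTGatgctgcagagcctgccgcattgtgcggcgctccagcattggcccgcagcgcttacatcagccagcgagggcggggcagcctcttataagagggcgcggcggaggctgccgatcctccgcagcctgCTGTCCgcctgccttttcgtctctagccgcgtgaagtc

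The left part began at base -121 from the annotated start and the right part at base 12, both on the strand opposite to the gene. Read along that strand, the right part comes before the left, the reverse of their order in the core. CAGCACC alone occurred in 7.14% of 32851 RefSeq promoter windows, GGACAG in 22.2% and both in 1.73%, the Scg2 window among them. RefSeq windows were at hand for 6 of the 10 genes, namely Tubb3, Elavl4, Syp, Scg2, Chga and Chgb, 9 windows in all. The closest match to the core in each of these 9 had 4 or 5 mismatches, and 62.0% of all windows held a match with at most 4. In the Scg2 window the 2 parts lie side by side on the strand opposite to the gene, at bases -13 (GGACAG) and -7 (CAGCACC). They stand there in the order of the core with no base between them. The search asked for 2 bases between the parts, so it gave this window 5 mismatches. A poor match says only that a core with exactly 2 free bases is not in the window.

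Shown next are 4 other genes, known as Rest targets or neuron markers, that held a core with 1 mismatch. Over all windows, 0.186% held a core with 1 mismatch or fewer. The windows searched for the listed genes were not counted, so the 4 cannot be set against that share. These 4 cores show what a core looks like beside the Tubb3 window. Capitals mark letters that match the core, and lower case marks the 2 free bases and the mismatch. The windows are those of GRCm38.p6 at chrX:20920869-20921168 (minus strand) for Syn1, chr9:108825795-108826094 (plus) for Celsr3, chr3:80802786-80803085 (minus) for Gria2 and chr1:84696172-84696471 (minus) for Dner. The core of Gria2 lies on the strand opposite to the gene.
Syn1: CAGCACCgcGGtCAG
Celsr3: CAGCACCgtGGgCAG
Gria2: tAGCACCgcGGACAG
Dner: CAGCACCaaGGACAa

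The changes of these 4 genes were not all of the same sign, and only that of Gria2 was called. Gria2, a subunit of AMPA glutamate receptors, had 23.47, 32.95 and 10.97 in KO against 2.582, 8.076 and 6.367 in WT, with a log2 change of 1.79 and an SE of 0.53 (limma adjusted p = 0.0244). Its WT values were all under 10, so Gria2 was tested only through its KO libraries, where it was higher, and its p is not taken as support. The call ended with the dependence on transcript length and GC content, described further on, removed (1.06, limma adjusted p = 0.157). Syn1, a protein of synaptic vesicles, had a log2 change of -0.56 (adjusted p = 0.207), Celsr3, a cadherin receptor of axon tracts, -0.50 (0.355) and Dner, a neuronal Notch ligand, 0.05 (0.957).

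Structural and growth cone proteins made up the first group of targets. Tubb3 encodes class III beta-tubulin, the tubulin by which neurons are commonly stained. Tubb3 (NCBI gene 22152, mm9 chr8:125935464-125945910) had 316.4, 292.7 and 431.7 in KO gonads, against 821.3, 505.7 and 586.1 in WT gonads. Every KO library lay below every WT library, and WT library 1 was the highest. The means were 346.9 ± 74.4 in KO and 637.7 ± 164 in WT (SD, n = 3 each), so that the level was 1.84-fold higher in WT. On the log2 scale the change was -0.87, with an SE of 0.20, a 95% interval from -1.30 to -0.43 and a limma adjusted p of 0.00812. Fewer cells of a type and less RNA per cell cannot be told apart in whole gonads.

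The call for Tubb3 held with each library left out in turn, with limma adjusted p between 0.00572 and 0.0356. Without WT library 1 its log2 change was -0.67. The call ended when the dependence of each library's values on transcript length and GC content, described further on, was removed, which left a log2 change of -0.44 (adjusted p = 0.127). Beta-tubulin genes share long stretches of coding sequence and the counting of shared reads is not given in the sources used here, so the Tubb3 value is uncertain in that respect.

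Stmn2 encodes a microtubule-destabilising protein of growth cones, also called SCG10. Stmn2 (mm9 chr3:8509527-8561604) had 125.5, 188.8 and 111.2 in KO, against 104.4, 147.7 and 139.8 in WT. The groups overlapped, with KO library 7 the highest. The log2 change was 0.10 (SE 0.23, interval -0.42 to 0.61, adjusted p = 0.77).

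Gap43 encodes a membrane protein of growing axons. Gap43 (mm9 chr16:42248674-42340764) had 130.6, 130.1 and 100.8 in KO, against 130.8, 126.2 and 123.9 in WT. It varied least of the 9 genes, its highest library being 1.30 times its lowest, and the groups overlapped, with KO library 8 the lowest. The log2 change was -0.08 (SE 0.18, interval -0.47 to 0.31, adjusted p = 0.734).

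Elavl4 encodes HuD, a neuronal RNA-binding protein that stabilises messages. Elavl4 (mm9 chr4:109876342-110024516) had 31.65, 51.55 and 18.7 in KO, against 28.11, 18.25 and 23.73 in WT. KO library 7 was the highest and KO library 8 the second lowest, so the groups overlapped. The log2 change was 0.43 (SE 0.38, interval -0.43 to 1.28, adjusted p = 0.411), and without KO library 7 it was 0.08.

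Vesicle and release proteins made up the second group. Syp encodes synaptophysin, a membrane protein of synaptic vesicles. Syp (mm9 chrX:7215706-7230382) had 164.3, 117.3 and 194.6 in KO, against 193.9, 206.8 and 182.9 in WT. KO libraries 5 and 7 lay below all WT libraries and KO library 8 among them. The log2 change was -0.32 (SE 0.20, interval -0.76 to 0.11, adjusted p = 0.229).

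Syt4 encodes a synaptotagmin found on secretory vesicles. Syt4 (NCBI gene 20983) had 19.38, 19.04 and 15.46 in KO, against 14.47, 12.26 and 13.14 in WT. All KO libraries lay above all WT libraries, within a narrow range of low values. The log2 change was 0.40 (SE 0.33, interval -0.33 to 1.14, adjusted p = 0.367). The SE of a low gene is drawn towards that of other low genes by the prior on the spread, and with a prior that does not depend on the mean the adjusted p was 0.0522.

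Snap25 encodes a SNARE protein of vesicle fusion and was below the filter. Snap25 (mm9 chr2:136539186-136608164) had 12.23, 12.73 and 3.07 in KO, against 2.59, 7.457 and 6.285 in WT. KO libraries 5 and 7 were the highest and KO library 8 lay within the WT range. With no filter on low values its log2 change was 0.58 (adjusted p = 0.501).

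Granins, the acidic proteins that fill dense-core granules of neuroendocrine cells, made up the third group. The promoters of Chga and Chgb are shown because they share a cyclic AMP response element, a motif chosen after the windows had been read. The windows are from RefSeq, both on the plus strand of GRCm38.p6, at chr12:102554691-102554990 for Chga and chr2:132781392-132781691 for Chgb. Capitals mark TGACGT in Chga and the full palindrome TGACGTCA in Chgb.
Chga: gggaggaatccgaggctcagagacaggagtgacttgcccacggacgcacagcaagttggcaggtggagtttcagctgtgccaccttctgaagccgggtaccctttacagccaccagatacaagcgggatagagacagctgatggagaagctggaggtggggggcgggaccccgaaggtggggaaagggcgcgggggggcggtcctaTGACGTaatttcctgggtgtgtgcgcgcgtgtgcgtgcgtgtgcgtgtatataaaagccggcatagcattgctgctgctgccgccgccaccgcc
Chgb: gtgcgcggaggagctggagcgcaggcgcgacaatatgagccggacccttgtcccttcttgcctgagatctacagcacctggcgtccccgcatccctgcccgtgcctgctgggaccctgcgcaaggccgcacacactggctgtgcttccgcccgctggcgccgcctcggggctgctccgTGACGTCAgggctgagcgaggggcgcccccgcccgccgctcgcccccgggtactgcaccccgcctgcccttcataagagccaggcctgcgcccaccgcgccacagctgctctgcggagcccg

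The motif began at base -44 in Chga and at base -72 in Chgb, on the strand of the gene. TGACGT was found, on either strand, in 7.51% of all promoter windows and TGACGTCA, which contains it, in 1.79%. The Scg2 window also held TGACGTCA, at base -68, and an Elavl4 window held TGACGT on the opposite strand.

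Chga (mm9 chr12:103793179-103803237) had 44.92, 47.2 and 61.63 in KO, against 142.4, 66.27 and 56.5 in WT. KO libraries 5 and 7 lay below all WT libraries, KO library 8 lay above WT library 4, and WT library 1 stood far above the rest. The log2 change was -0.67 (SE 0.33, interval -1.41 to 0.07, adjusted p = 0.146). Without WT library 1 it was -0.26 (adjusted p = 0.458).

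Chgb (mm9 chr2:132607014-132620808) had 8.161, 7.226 and 7.64 in KO, against 21.94, 9.523 and 10.02 in WT. All KO libraries lay below all WT libraries, as they did in 25.6% of the genes that passed the filter, and WT library 1 was again the highest. Chgb was below the filter and so is outside that share. With no filter its log2 change was -0.68 (limma adjusted p = 0.27).

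Per kilobase of transcript, which allows levels of different genes to be compared, Tubb3 stood above the other targets in both groups, though the transcript assumed is the longest coding one. Its level per kb was 185.7 ± 39.8 in KO and 341.4 ± 87.8 in WT (SD, n = 3 each), and 60.4% of 15841 genes with a known transcript length had a lower level. In KO the order continued with Gap43 (84.9 ± 12.0), Stmn2 (68.4 ± 19.9) and Syp (61.2 ± 15.0), and in WT it continued with Gap43 (89.4 ± 2.49), Syp (75.1 ± 4.62) and Stmn2 (63.0 ± 11.1). In KO these 3 neighbours overlapped one another. In WT Gap43 lay above Syp in every library, and Syp overlapped Stmn2.

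Chga followed at 27.2 ± 4.81 per kb in KO and 46.9 ± 25.0 in WT, and it overlapped its neighbour Stmn2 in WT and no other target in KO. The other 4 genes lay at 8.19 ± 3.99 in KO and 5.63 ± 1.19 in WT for Elavl4, 4.62 ± 0.56 and 3.41 ± 0.29 for Syt4, 4.42 ± 2.57 and 2.57 ± 1.20 for Snap25, and 2.80 ± 0.17 and 5.05 ± 2.57 for Chgb, KO before WT in each. Each of these 4 overlapped its neighbour in the order, in KO and in WT. No more than 13.1% of genes had a lower level than any of these 4.

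Across the whole table, genes called higher in KO had a median transcript length of 5188 nt and a median GC content of 45.4%, genes called lower 1710 nt and 55.4%, and genes not called 3104 nt and 50.6%. Of the 7 tested targets, Tubb3, with 1868 nt and 57.9% GC, and Chga, with 1883 nt and 58.4% GC, had the most negative changes, while Elavl4, with 4149 nt and 38.9% GC, and Syt4, with 3892 nt and 40.7% GC, had the most positive. Gap43 was the shortest, at 1420 nt with 49.7% GC, and had a change of -0.08, while Stmn2 (2073 nt, 46.1% GC) and Syp (2591 nt, 56.6% GC) had 0.10 and -0.32. With the trend of each library's values on length and GC content removed by splines, 0 of the 7 targets were called in either direction, against 6.07% of 14449 genes higher and 6.64% lower. Their median log2 change was then -0.03, beside -0.01 over all genes, and the unadjusted p was under 0.05 for 1 of them, Tubb3 (0.0301). The part of length and GC content in the changes of the targets was not tested.

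**Figure D2:**
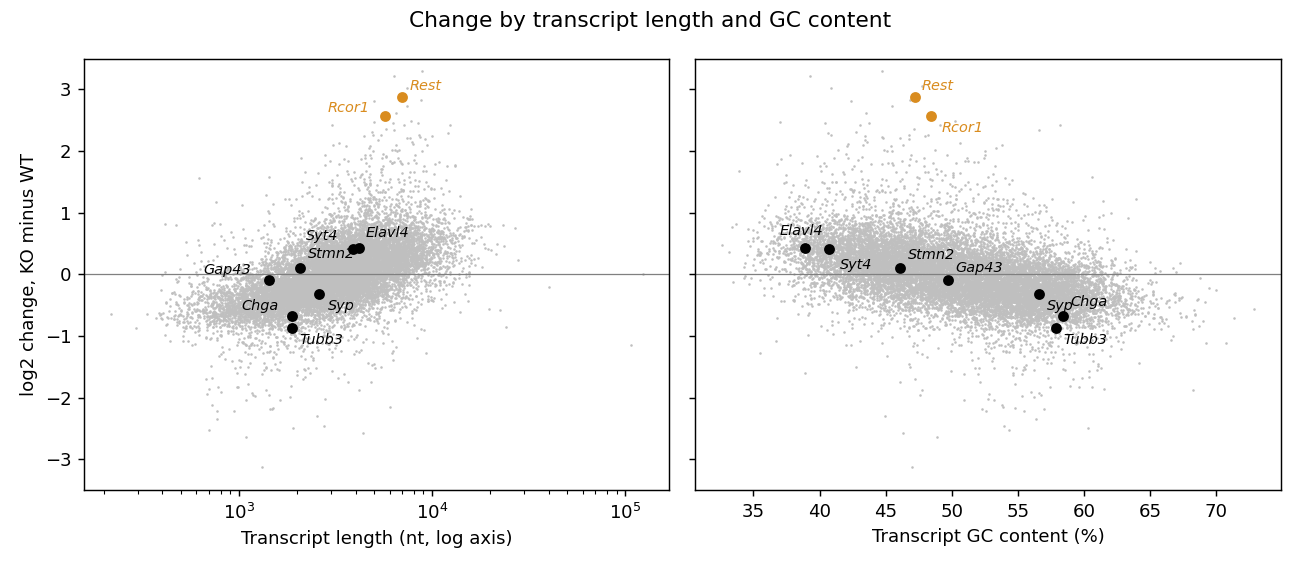
Log2 change, KO minus WT, of each gene against transcript length in nt (left, log axis) and transcript GC content in percent (right). Grey points are all tested genes with both values, black points the 7 tested targets, and orange points Rest and Rcor1; a few genes with larger changes lie outside the axes. Among the 7 targets, Elavl4 and Syt4 are the longest and most AT-rich, with log2 changes of 0.43 and 0.40. Tubb3 and Chga are the most GC-rich, with -0.87 and -0.67, and Gap43 is the shortest, with -0.08.

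With the trend removed, log2 changes were 0.13 for Stmn2, -0.03 for Elavl4, 0.19 for Gap43, -0.06 for Syp, 0.01 for Syt4 and -0.24 for Chga, each with an adjusted p of at least 0.468. The intervals remained wide, from -0.77 to 0.70 for Elavl4 and from -0.99 to 0.51 for Chga. The intervals of Stmn2, Gap43 and Syp lay between -0.44 and 0.62. In the plot of changes under 3 settings, the intervals of Tubb3 lie below 0. With the trend removed and WT library 1 left out as well, which the plot does not show, the Tubb3 change was -0.26 and its interval reached from -0.56 to 0.04 (adjusted p = 0.254).

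**Figure D3:**
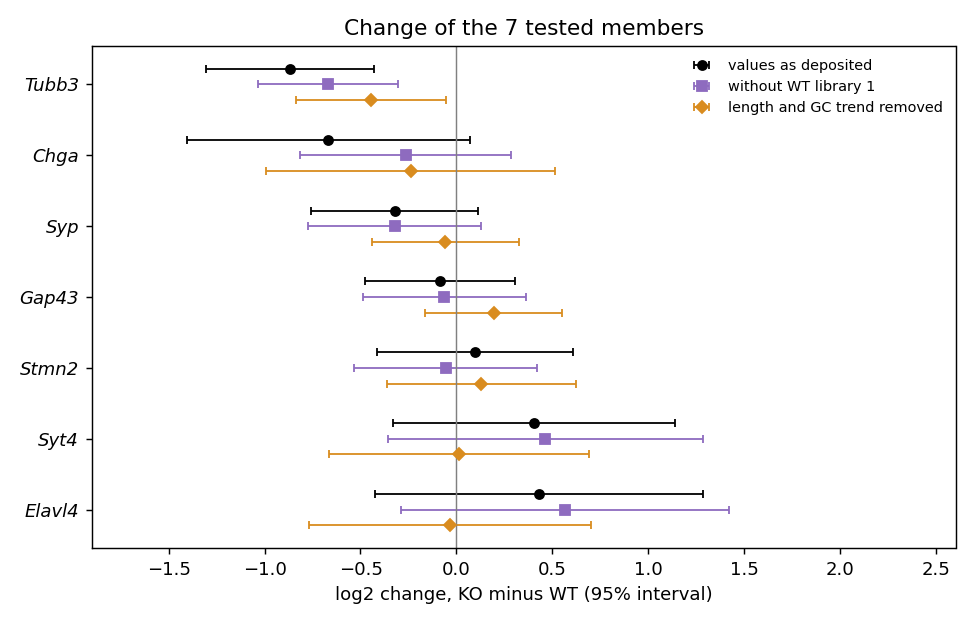
Log2 change, KO minus WT, of the 7 tested targets with its 95% interval, from the values as deposited (circles), without WT library 1 (squares) and with the length and GC trend removed (diamonds). Under these 3 settings only the intervals of Tubb3 lie wholly below 0, with -0.87, -0.67 and -0.44 in that order, and its call ended with the trend removed (adjusted p = 0.127).

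Markers of other cell types also differed between the libraries. WT library 1 held a summed value of 35400 over 10 skeletal muscle markers, against 1286 to 1503 in KO and 1974 and 2499 in the other WT libraries. Over 29 other neuron markers the sums were 13500 to 14590 in KO, 18870 in WT library 1, and 14960 and 15150 in the others of WT. Dcx, a microtubule protein of migrating neurons, had 157.7 in WT library 1, against 16.36 to 30.7 in KO and 18.5 and 19.41 in the other WT libraries. WT library 1 was the highest library for 10 of 10 skeletal muscle markers, 9 of 18 sympathetic and chromaffin markers, 8 of 29 other neuron markers, 6 of 6 fetal Leydig cell markers, 4 of 5 adrenal cortex markers and 4 of 9 targets (Tubb3, Gap43, Chga and Chgb). Gap43 counts there only by 130.8 against 130.6 in KO library 5. The same held for 6 of 11 germ cell markers, 5 of 12 glial markers, 7 of 18 granule processing genes and 15 of 40 family relatives, but for 1 of 11 Sertoli cell and 0 of 7 mesonephric markers. The share over all genes was not counted. The adrenal cortex markers summed to 985.3 to 1082 in KO, 1507 in WT library 1, and 1085 and 1197 in the other WT libraries. The fetal Leydig cell markers summed to 48840 to 69500 in KO, 107300 in WT library 1, and 65270 and 70000 in the other WT libraries. None of the neuron markers was listed at 0 in any library. The part of these cell types in the values of the targets was not tested.

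The genes whose values followed a target most closely were taken as the 3 with the highest Pearson correlation of log2 values over the 6 libraries, among genes with a mean of at least 50. These are descriptions over libraries that share their normalisation. For Tubb3 they were Ebp, Pmvk and Fam134a, each at 0.998, and for Chga they included Adcyap1r1 (0.997) and Ikbke (0.997). For Elavl4 they were Nae1 (0.997), Nusap1 (0.991) and Pqlc3 (0.987), for Syp Ppp2r5d (0.996), Trafd1 (0.993) and Tmem189 (0.987), and for Syt4 Usp29 (0.996), Napg (0.992) and Thoc1 (0.988). For Stmn2 they were Perp (0.992), Trp53inp2 (0.984) and Pnrc1 (0.981), and for Gap43 Zdhhc14 (0.989), Gins1 (0.987) and Gfpt2 (0.985). Among the targets themselves, Tubb3 and Chga had a correlation of 0.87 and Elavl4 and Syp one of -0.94.

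Other genes known as Rest targets were taken from a list. Of 50 listed, 44 were in the table and 34 were tested. Of these, 1 was called higher in KO (Gria2, tested only through its KO libraries) and 2 lower, beside 17.3% and 17.0% of all genes tested. The median log2 change was 0.13. Mapk8ip1, a scaffold of JNK signalling also called islet-brain 1, had 1959, 1629 and 2064 in KO against 2518, 2391 and 2479 in WT, a log2 change of -0.39 (adjusted p = 0.0138). Olfm1, a secreted glycoprotein of neurons, had 558.2, 536.1 and 606.3 in KO against 821.9, 685.1 and 674.8 in WT (-0.35, adjusted p = 0.0357). KO lay wholly below WT for both. With the length and GC trend removed 0 of the 34 were called, beside 6.07% of all genes higher and 6.64% lower, and the median was -0.15. The call of Gria2 ended without KO library 5 or 7 or WT library 4 (adjusted p = 0.0845, 0.102 and 0.0535), and that of Mapk8ip1 without WT library 4 (0.0524). The call of Olfm1 held only without KO library 8 or WT library 3, and the highest adjusted p was 0.126, without WT library 1.

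Neuron markers outside the known targets had 2 genes called higher in KO and 0 lower of 27 tested, beside 17.3% and 17.0% of all genes tested. Map2, listed as Mtap2, encodes a microtubule protein of dendrites and had 931.6, 893.1 and 887.1 in KO against 497.8, 584.2 and 532.9 in WT, a log2 change of 0.75 (SE 0.10, adjusted p = 0.00166). Dpysl3, a collapsin response mediator protein of growing axons, had 90.89, 109 and 177.4 in KO against 30.45, 51.64 and 37.58 in WT, a log2 change of 1.61 (SE 0.30, adjusted p = 0.00342). Both calls held with every library left out in turn and with the trend removed, at 0.38 (adjusted p = 0.0205) for Map2 and 1.35 (0.0155) for Dpysl3. The list's median was 0.01. The cell adhesion gene Ncam1 was also called with the trend removed, lower in KO (-0.31, adjusted p = 0.0224). That made 2 higher and 1 lower with the trend removed, beside 6.07% and 6.64% of all genes.

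The 17 listed genes of the Rest complex had 7 called higher in KO and 3 lower, beside 17.3% and 17.0% of all genes tested, with a median log2 change of 0.26. Rest is 1 of the 7, and its direction was part of how the targets were chosen. Rcor3, a CoREST relative, had a log2 change of 1.55 (adjusted p = 0.00335) and Hmg20b, a subunit of the CoREST complex, -0.48 (adjusted p = 0.00765). With the trend removed the counts were 3 higher (Rest itself, Rcor1 and Rcor3) and 1 lower (Sin3b), beside 6.07% and 6.64% of all genes.

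Sympathetic and chromaffin markers, which cover cells that store granins, had 0 called higher in KO and 5 lower of 16 tested, beside 17.0% of all genes called lower, with a median log2 change of -0.44. Npy, a peptide transmitter, had 202.1, 201.7 and 265.7 in KO against 807.3, 348.3 and 421.4 in WT (-1.15, adjusted p = 0.00933), and Pnmt, the enzyme that makes adrenaline, had 48.92, 23.26 and 36.77 in KO against 69.21, 80.86 and 114.8 in WT (-1.29, adjusted p = 0.0107). Without WT library 4 the adjusted p of Pnmt was 0.0547. Hand2, a transcription factor of sympathetic precursors, and Ntrk2, a neurotrophin receptor, were also among the genes called lower. The summed values were 1773, 2050 and 1748 in KO and 3536, 2848 and 2359 in WT, with no overlap. This order is not particular to the list. Sums of the 9 Rest targets with values (853.1 to 944.8 in KO, 1100 to 1460 in WT) were also lower in every KO library. So were sums of other known Rest targets (4921 to 5198 in KO, 5620 to 6189 in WT), other neuron markers, family relatives and adrenal cortex markers. Skeletal muscle markers, the Rest complex, Sertoli cell markers, which include the deleted Ptgds, and all genes had the same order. Sums of glial, granule processing, germ cell, fetal Leydig cell and mesonephric genes overlapped. Dbh, which makes noradrenaline, was near 0 in KO libraries 5 and 8, at 4.8 in KO library 7, and at 14.57, 4.924 and 15.55 in WT. With the trend removed 2 of the 16, Ntrk2 and Ntrk3, were called lower, beside 6.64% of all genes.

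Glial and Schwann cell markers, of which 10 were tested, had Erbb3 (1.84, adjusted p = 0.000802) called higher in KO and Mbp (-0.40, adjusted p = 0.0447) called lower, beside 17.3% and 17.0% of all genes tested. The call of Mbp held only without WT library 1, of the 6 libraries left out in turn (adjusted p up to 0.176). Both were called with the trend removed, Erbb3 at 1.59 (adjusted p = 0.00358) and Mbp at -0.58 (0.0246), beside 6.07% of all genes higher and 6.64% lower. The summed values of the list overlapped, at 4862 to 5827 in KO and 5114 to 6219 in WT. Genes for granule and vesicle processing had 2 called higher in KO and 1 lower of 16 tested, beside 17.3% and 17.0% of all genes tested, with a median of -0.14. Cadps, a priming factor of dense-core granules, had a log2 change of 0.79 (adjusted p = 0.011), Pam, which amidates peptides, 0.32 (0.0384), and Pcsk1n, the proSAAS granin-like protein, -1.37 (0.034). None of these 3 was called with the trend removed, and the calls of Pam and Pcsk1n held only when KO library 7 or WT library 3 was the one left out (adjusted p up to 0.155 and 0.114). Pcsk1n had 5.114, 8.245 and 5.212 in KO, all under 10. It was thus tested only through its WT libraries, where it was higher. With no filter its limma adjusted p was 0.03671.

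Relatives of the targets by protein family had 2 called higher in KO and 8 lower of 35 tested, beside 17.3% and 17.0% of all genes tested, with a median log2 change of -0.12. The 5 beta-tubulins Tubb2a, Tubb4a, Tubb4b, Tubb5 and Tubb6 were among the 8. Tubb4b, a broadly expressed beta-tubulin, had 4874, 4057 and 4653 in KO against 6090, 5654 and 5820 in WT (-0.37, adjusted p = 0.0116), with KO wholly below WT. Snap23, the SNAP25 relative of non-neuronal cells, was higher in KO at 0.49 (adjusted p = 0.00655), as was the HuB gene Elavl2 at 0.66 (0.0143). With the trend removed none of these 7 was called, and 2 other relatives, Elavl1 (-0.42, adjusted p = 0.00797) and Syt11 (-0.52, 0.0384), were called lower, beside 6.64% of all genes.

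**Figure D4:**
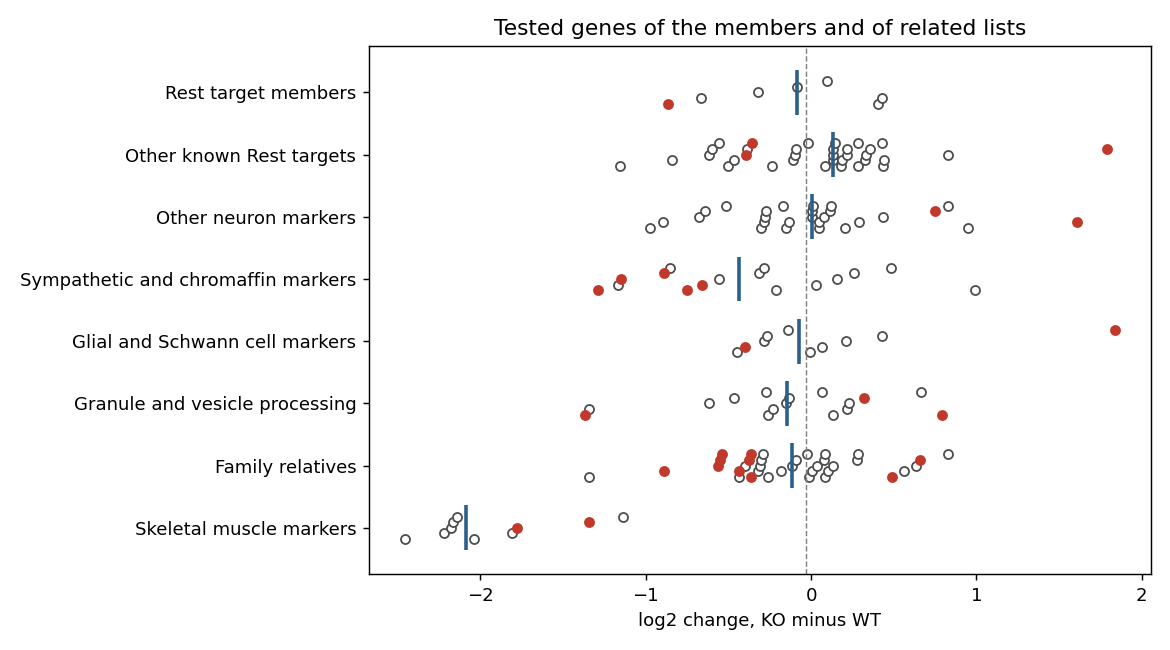
Log2 change, KO minus WT, of each tested gene in the Rest targets and in the other lists, 1 point per gene. Red points were called at an adjusted p under 0.05, blue bars mark each list's median, and the dashed line marks the median of all tested genes. The targets have 1 called gene of 7 (Tubb3), and the sympathetic and chromaffin markers have 5 called genes of 16, all lower in KO, beside 17.0% of all genes tested.

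Markers of the gonad itself were present in all libraries, with Amh of Sertoli cells between 36640 and 59870 in KO and between 53140 and 72630 in WT. Called genes numbered 0 higher and 2 lower of 11 Sertoli cell markers (Clu and the deleted Ptgds itself), 3 higher and 0 lower of 11 germ cell markers, 0 higher and 2 lower of 6 fetal Leydig cell markers, 0 higher and 2 lower of 10 skeletal muscle markers, 1 higher and 0 lower of 7 mesonephric markers and 0 higher and 1 lower of 5 adrenal cortex markers, with directions given for KO, beside 17.3% higher and 17.0% lower over all genes tested. Mb, 1 of the 2 skeletal muscle markers called, had all its KO values under 10, so it was tested only through its WT libraries, where it was higher. Library sums of all values lay between 21657342 and 21846849 in KO and between 22881124 and 23734462 in WT, and the read depth behind them is unknown.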

How the data were processed

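RNA of 3 KO and 3 WT gonad samples was made into TruSeq libraries and sequenced on an Illumina instrument, per the labels. The deposited signal is a table of upper-quartile normalised pseudo-counts, per the file headers. Per the submitters' processing notes CASAVA 1.8.2, edgeR 2.6.2 and the build mm9 were used; what each tool did, and which annotation was used, is not given in the sources used here. The values are fractional, so depth is unknown and no count model was run.

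With limma 3.58.1 (R 4.3.3), log2(value + 1) was compared between groups on 15116 of 16862 genes with at least 10 in at least 3 libraries, two-sided, with a mean-dependent prior and Benjamini-Hochberg adjustment over all genes tested at 0.05. This scale understates changes of low genes. An exact permutation test of 3 against 3 cannot go below p = 0.1. Length and GC content came from the longest coding GENCODE transcript per gene (95.6% of tested genes), and the trend was fitted by natural splines of 4 degrees of freedom. Figures were drawn with matplotlib 3.10.9.

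The targets, lists and tests were chosen with earlier results of these data known. Named genes were all targets, Rest, Rcor1, and up to 4 called genes per list with the lowest adjusted p, or 2 by mean where none was called. Other genes named (Syn1, Celsr3, Dner, Dcx, Dbh, Ncam1, Elavl1, Elavl2, Syt11, Tubb2a, Tubb4a, Tubb5, Tubb6, Ntrk2, Ntrk3, Sin3b and Amh) were chosen after their values were seen. Some genes that the rule names are not reported here.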

Additional observations from a re-analysis of the deposited data

How the results depend on the processing

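Tubb3 was called lower under every one of the 20 alternatives but 2, those with the length and GC trend removed. The count of targets called lower was 0 with the trend removed and 0 with WT library 1 also left out. Over all genes these settings gave 877 and 842 called higher in KO and 959 and 880 lower, and leaving out each library gave 1635 to 2495 higher and 1397 to 2546 lower. Scaling to equal totals gave 3511 higher and 1690 lower and moved the median log2 change over all genes to 0.07, against -0.03. Of the 6 targets that were not called, Syp and Syt4 kept their sign under all settings run, and Stmn2, Gap43, Elavl4 and Chga did not. Stmn2 was at -0.0635 with library weights, at -0.0282 with the trend and WT library 1 removed, and between -0.13 and 0.25 with 1 library left out. Gap43 was at 0.0169 with equal totals, 0.0116 with library weights, 0.19 with the trend removed and 0.19 without WT library 1 as well, and between -0.1467 and 0.0383 with 1 library left out. Elavl4 was at -0.0337 with the trend removed, and Chga at 0.15 with the trend and WT library 1 removed. With these 2 settings Hmg20b was at 0.0379 and 0.0066 and Tubb4b at 0.0366 and 0.0464. No paired analysis was possible because the KO and WT libraries share no replicate number. The read depth is unknown, so the counting error behind low values such as those of Elavl4 and Syt4 cannot be given. The cause of these shifts was not tested.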
